A study of Mus musculus with 34 samples.

Results

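Glucocorticoid hormones are known to switch on a set of genes from which 8 were followed through mouse spinal cord injury: Fkbp5, Tsc22d3, Sgk1, Ddit4, Klf9, Zbtb16, Pdk4 and Errfi1. They are 8 of the 18193 genes that a single symbol names on the array, and 22 of its 45101 probe sets carry their symbols. Where a gene has several probe sets, the one used was chosen by its mean level over the 34 arrays, the highest being taken. The list of genes was drawn up after values of these arrays had been seen, so its counts describe these arrays and are not independent evidence. All 8 genes lay above log2 4, the limit taken here for signal over background, on every array, and no member was lost to that filter.

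Expression was measured on Affymetrix arrays in spinal cord of wild-type mice (WT) and of knockout mice (KO) that are null for trkB.T1, the truncated form of the neurotrophin receptor trkB that Ntrk2 encodes. Sham mice of both genotypes had surgery with the cord left intact, and the other mice had a spinal cord injury (SCI) and were sampled 1, 3 or 7 days later. WT cord gave 4 sham arrays and 5, 4 and 4 at days 1, 3 and 7, and KO cord gave 4 sham arrays and 4, 5 and 4. Neither the age of the mice nor the animal behind each array is labelled. The p-values therefore rest on the spread between samples that may be technical replicates. The number of arrays limits the precision, and in a bulk tissue fewer cells of a type cannot be told apart from less RNA per cell.

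Glucocorticoids enter cells and bind the glucocorticoid receptor, which the gene Nr3c1 encodes and which Hsp90 and its co-chaperones hold ready in the cytoplasm. The bound receptor moves to the nucleus and sits on DNA elements built from 2 inverted copies of a hexamer, where it raises the transcription of nearby genes. In injured nervous tissue these hormones are known for restraining inflammation and for shifting metabolism towards the use of fat and the breakdown of protein. The 8 genes also answer to other signals, among them hypoxia, fasting, growth factors and cell stress, so their level alone does not name the hormone.

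The deposited values hold no sequence, so the stretches upstream of the members' start sites were read from RefSeq's promoter table of assembly GRCm38.p6 to show what the receptor could meet there. The table holds 15 windows for 7 of the 8 genes, each from 250 bases before an annotated start to 50 after it, and none for Zbtb16. The 250 upstream bases are shown for 4 of them, 1 for each gene in which a searched motif was found, with the Sgk1 window that holds the most, 5′ to 3′ on the strand of the gene, and capitals mark the motifs.
Sgk1, chr10:21993640-21993889, plus strand: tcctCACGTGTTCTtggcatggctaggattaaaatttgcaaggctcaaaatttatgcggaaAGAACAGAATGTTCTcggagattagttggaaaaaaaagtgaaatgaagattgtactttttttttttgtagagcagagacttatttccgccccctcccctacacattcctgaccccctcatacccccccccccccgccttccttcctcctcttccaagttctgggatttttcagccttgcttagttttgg
Tsc22d3, chrX:140600523-140600772, minus strand: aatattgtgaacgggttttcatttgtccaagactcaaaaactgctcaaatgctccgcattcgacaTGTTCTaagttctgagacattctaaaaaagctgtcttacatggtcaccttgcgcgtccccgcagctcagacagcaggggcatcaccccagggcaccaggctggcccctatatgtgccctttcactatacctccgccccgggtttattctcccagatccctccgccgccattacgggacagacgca
Fkbp5, chr17:28486150-28486399, minus strand: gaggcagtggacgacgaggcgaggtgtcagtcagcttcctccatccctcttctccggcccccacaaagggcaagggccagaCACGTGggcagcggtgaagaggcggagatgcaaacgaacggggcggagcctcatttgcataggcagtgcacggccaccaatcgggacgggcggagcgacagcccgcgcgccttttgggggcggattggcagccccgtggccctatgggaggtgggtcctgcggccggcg
Errfi1, chr4:150854820-150855069, plus strand: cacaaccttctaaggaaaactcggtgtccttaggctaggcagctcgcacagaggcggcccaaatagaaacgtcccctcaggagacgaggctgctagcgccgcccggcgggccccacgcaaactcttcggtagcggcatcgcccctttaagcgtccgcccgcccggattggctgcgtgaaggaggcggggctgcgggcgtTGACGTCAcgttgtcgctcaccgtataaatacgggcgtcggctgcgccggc
An inverted repeat of the form of a glucocorticoid response element, GNACA, then any 3 bases, then TGTNC, was searched on both strands and occurred in 0.475% of the table's 32841 windows. Among the members it occurred in the Sgk1 window shown, as GAACAGAATGTTC, at chr10:21993702-21993714, 188 bases before that annotated start. The single hexamer AGAACA was present in 18.976% of all windows and in windows of Sgk1 and Tsc22d3, and in Sgk1 it overlaps both ends of the inverted repeat and, near the start of the stretch, the E-box CACGTG. That E-box, which the circadian clock factors are known to bind, occurred in 7.153% of windows and in those of Sgk1 and Fkbp5. The cyclic AMP element TGACGTCA occurred in 1.79% of windows and, among the members, in that of Errfi1. These matches describe letters in short windows; they are not binding sites shown by the arrays, and known receptor sites often lie far from the start of a gene.

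The tissue carried the marks of its label. The mean log2 level of 10 neuronal markers was 12.56 ± 0.02 (SD, n = 4) in WT sham cord, that of 7 oligodendrocyte markers 13.39 ± 0.12, and lymphocyte markers lay near the floor of the arrays in all 8 groups, with means from 2.35 to 2.44. Skeletal muscle markers differed widely between arrays of the same group, with a mean of 6.02 ± 3.21 in WT sham and 9.29 ± 1.29 in KO sham. The targeted gene went against 1 label. At the pair of Ntrk2 probe sets that are low in the other KO arrays, values of 9.46 and 8.59 came from the library labelled KO sham replicate 2, where the WT sham means were 10.39 and 9.72 and the KO day 1 means 4.10 and 2.83. It was kept in its labelled group. Without it the same members passed in each injured KO group against sham, with medians of the 8 at 0.87, 0.36 and 0.05 at days 1, 3 and 7 against 0.95, 0.45 and 0.09 with it. In that fit 45.3%, 66.3% and 48.8% of all genes passed at these days. Caudal Hox genes, which mark the level along the cord, were higher in KO than in WT sham cord for 4 of 6 tested genes. Their mean was lowest of the 8 groups in WT sham cord, at 5.74 ± 0.27 (SD, n = 4). WT cord at day 1 was above its sham for Hoxa10, Hoxc10, Hoxd10 and Hoxd9, by 2.43, 1.52, 3.97 and 0.76, and below it for Hoxc9. In KO cord at day 1 the first 4 differed from sham by -0.07, 0.06, -0.85 and -0.26, and none of them passed. Hoxc9 and Hoxa9 passed there, at -0.31 and -0.33. In KO cord at day 3 all 6 tested Hox genes passed below sham, from Hoxd10 at -3.09 to Hoxc9 at -0.54. The Hox mean was 6.28 in that group and 7.19 in KO sham cord. Injured cord and sham cord thus differed in Hox level in both genotypes. The part of the Hox genes in the results below was not tested beyond a fit with their mean as a covariate.

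Differences are given as log2 differences ± SE from a linear model over all 34 arrays (limma), with Benjamini-Hochberg adjustment across all 11993 tested genes and a threshold of 0.05. On day 1 after injury in WT cord, 59.5% of all tested genes passed, 27.1% of them upward and 32.5% downward as shares of all genes. Of the 8 members 3 rose (Fkbp5, Sgk1 and Errfi1), 2 fell (Tsc22d3 and Ddit4) and 3 did not pass, so the 5 that passed are a share near that background. In KO cord at day 1, where 51.1% of genes passed, 5 members rose (Fkbp5, Sgk1, Zbtb16, Pdk4 and Errfi1) and none fell, against 23.7% of all genes called higher and 27.3% lower. The median difference of the 8 was 0.59 in WT and 0.95 in KO cord, and that of all genes -0.05 in both. Where arrays of injured and sham cord are said below not to overlap, many other genes did the same. At days 1, 3 and 7 this held for 53.2%, 57.5% and 57.5% of all tested genes in WT cord. In KO cord it held for 55.5%, 60.8% and 62.6%. Of the 8 members it held for 5, 2 and 4 in WT and 6, 3 and 4 in KO cord. Cell markers moved with injury too. The mean of 8 microglia and macrophage markers went from 8.64 in WT sham to 10.06, 11.63 and 12.49 at days 1, 3 and 7, and from 8.33 to 9.77, 12.001 and 12.38 in KO cord, and at day 1 7 of the 8 rose in WT and 6 in KO cord. The mean of 10 neuronal markers went from 12.56 to 12.04, 11.70 and 11.84 in WT and from 12.54 to 12.18, 11.51 and 11.94 in KO cord, and at day 1 6 of the 10 fell in WT and 3 in KO cord. Their part in the members' differences was not tested.

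Fkbp5 encodes a co-chaperone of Hsp90 that lowers the receptor's affinity for hormone, a feedback brake on the pathway. In WT sham cord its log2 level was 7.96, 8.12, 8.51 and 8.28, and at day 1 it was 9.68, 9.52, 9.57, 9.63 and 9.77. Every day 1 array lay above every sham array, and the rise was 1.42 ± 0.32, or 2.67-fold (adjusted p = 0.000471, limma). The KO sham arrays read 8.41, 8.42, 8.33 and 8.42 and the KO day 1 arrays 10.66, 10.69, 10.27 and 10.13. The groups again did not overlap, and the rise was 2.04 ± 0.34, or 4.12-fold (adjusted p = 1.45e-05, limma). At day 7 the WT arrays read 8.96, 8.93, 8.97 and 8.53, all above sham, yet the difference of 0.63 ± 0.34 did not pass (adjusted p = 0.11, limma). The KO day 7 arrays read 9.31, 10.09, 9.45 and 9.59, which was 1.22 ± 0.34 over sham (adjusted p = 0.00336, limma). KO cord at day 1 had the highest mean of the 8 groups, 10.44 ± 0.28 (SD, n = 4). WT day 3, WT day 1, KO day 7 and KO day 3 followed within 0.14 of each other and with overlapping arrays, and the sham groups were lowest.

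Tsc22d3, also called Gilz, encodes a leucine zipper protein that carries part of the anti-inflammatory action of glucocorticoids. In WT cord at day 1 it fell where Fkbp5 rose. Its WT sham levels were 11.47, 11.53, 11.38 and 11.63, and its WT day 1 levels 10.76, 10.70, 11.02, 10.93 and 11.19. All 5 injured arrays lay below all 4 sham arrays, a fall of 0.58 on the log2 scale (SE 0.22, adjusted p = 0.0241, limma). The call was lost without WT day 1 replicate 1, WT day 1 replicate 2 or WT sham replicate 4 (adjusted p from 0.0507 to 0.0592, limma), while the direction held. The same call was lost with the mean of the gene's probe sets and with the caudal Hox covariate (adjusted p = 0.0646 and 0.0726, limma). The KO sham arrays read 11.58, 11.53, 11.70 and 11.76, and the KO day 1 arrays 11.57, 11.61, 11.67 and 11.47. These overlapped, with a difference of -0.06 ± 0.23 (adjusted p = 0.848, limma). At day 7 the WT level was 10.92, 11.01, 10.79 and 10.51, below all sham arrays, with a fall of 0.69 on the log2 scale (SE 0.23, adjusted p = 0.0114, limma). The KO day 7 level of 11.07, 11.42, 11.18 and 11.07 also lay below all KO sham arrays, with a difference of -0.46 ± 0.23 that did not pass (adjusted p = 0.0931, limma). The sham groups and KO day 1 headed the order of the groups with overlapping arrays, and WT day 7 was lowest.

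Sgk1 encodes a serum- and glucocorticoid-regulated kinase that acts on ion channels and cell survival. It passed the test upward at all 3 times in both genotypes. Its WT sham levels were 10.97, 11.48, 10.34 and 11.59, and its WT day 1 levels 12.49, 12.59, 12.20, 12.56 and 13.58. No day 1 array reached down to sham, and the rise was 1.59 ± 0.30, or 3.01-fold (adjusted p = 6.5e-05, limma). At day 7 the WT arrays read 12.73, 12.87, 12.66 and 12.70, a rise of 1.64 ± 0.32 (adjusted p = 7.65e-05, limma). In KO cord the sham arrays were spread, at 12.22, 10.54, 11.33 and 11.91, and the lowest was the library labelled replicate 2. KO day 1 read 13.56, 13.76, 13.67 and 13.72, a tight group 2.18 ± 0.32 over sham, or 4.53-fold (adjusted p = 2.27e-06, limma). KO day 7 read 13.25, 13.31, 13.23 and 12.71, a rise of 1.63 ± 0.32 (adjusted p = 0.000107, limma).

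Ddit4, also called Redd1, encodes an inhibitor of the growth kinase complex mTORC1 that glucocorticoids, hypoxia and stress induce. In WT sham cord it read 9.77, 9.79, 9.91 and 10.18, and at day 1 it read 8.75, 8.84, 9.01, 8.45 and 9.93. Of the 5 injured arrays 4 lay below sham while replicate 5 lay among the sham values, and the fall was 0.92 on the log2 scale (SE 0.20, adjusted p = 0.000313, limma). KO sham arrays read 10.27, 9.94, 10.11 and 10.04, and KO day 1 arrays 9.79, 10.02, 9.94 and 10.15. They overlapped, with a difference of -0.12 ± 0.21 (adjusted p = 0.664, limma). WT day 1 was the lowest of the 8 groups, at 9.0 ± 0.56 (SD, n = 5). WT day 7 levels were 9.79, 9.65, 9.77 and 9.46 and KO day 7 levels 9.69, 9.83, 9.97 and 9.66, and neither differed from its sham group by the test (adjusted p = 0.319 and 0.229, limma).

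Klf9 and Zbtb16 encode zinc finger transcription factors, of which Klf9 is also known for its part in nerve cell maturation. Klf9 varied little in sham cord, at 13.57, 13.66, 13.68 and 13.65 in WT and 13.72, 13.65, 13.74 and 13.76 in KO. At day 1 the WT arrays read 13.53, 13.22, 13.18, 13.18 and 13.70, and the KO arrays 14.12, 14.12, 13.85 and 13.95. The WT values sat mostly below sham and the KO values wholly above it, yet neither injury difference passed, at -0.28 ± 0.15 in WT (adjusted p = 0.109, limma) and 0.29 ± 0.16 in KO (adjusted p = 0.121, limma). At day 7 Klf9 read 13.46, 13.49, 13.40 and 13.38 in WT and 13.59, 13.79, 13.75 and 13.56 in KO cord, and neither group passed against sham.

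Zbtb16 is also called Plzf. Its WT sham levels were 6.14, 6.21, 5.96 and 5.94, and its WT day 1 levels 7.51, 6.48, 6.71, 7.23 and 6.78. The groups did not overlap, but the difference of 0.88 ± 0.49 did not pass (adjusted p = 0.123, limma). In KO cord the sham arrays read 6.35, 6.46, 6.04 and 6.52 and the day 1 arrays 8.47, 8.66, 8.41 and 7.60, a rise of 1.94 ± 0.52, or 3.84-fold (adjusted p = 0.0029, limma). KO day 7 arrays read 7.38, 8.47, 7.93 and 7.94, still wholly above sham, with a rise of 1.59 ± 0.52 (adjusted p = 0.0109, limma). WT day 7 arrays were scattered at 6.80, 7.30, 6.40 and 5.26, around a difference of 0.38 ± 0.52 (adjusted p = 0.551, limma).

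Pdk4 encodes a kinase that shuts pyruvate dehydrogenase and so favours the burning of fat. Its WT sham levels were 7.26, 7.46, 7.13 and 7.60, its WT day 1 levels 7.73, 7.69, 7.44, 8.30 and 8.54, and its WT day 7 levels 7.47, 7.79, 7.98 and 7.49. These groups overlapped and neither injured group passed (adjusted p = 0.202 and 0.517, limma). KO sham arrays read 7.37, 7.32, 7.66 and 8.34, and KO day 1 arrays 9.07, 9.01, 8.67 and 8.91. All 4 injured arrays lay above sham, a rise of 1.24 ± 0.40, or 2.36-fold (adjusted p = 0.0124, limma). By day 7 the KO arrays were back among the sham values, at 7.69, 7.68, 7.54 and 7.53.

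Errfi1, also called Mig6, encodes an inhibitor of the epidermal growth factor receptor. It read 10.49, 10.51, 10.62 and 10.42 in WT sham and 11.35, 10.96, 10.86, 11.11 and 11.33 in WT day 1 cord. The groups did not overlap, and the rise was 0.61 ± 0.12, or 1.53-fold (adjusted p = 6.75e-05, limma). KO cord showed a rise of like size, 0.67 ± 0.12 (adjusted p = 6.03e-05, limma), from 10.80, 10.54, 10.65 and 10.78 to 11.51, 11.35, 11.19 and 11.38. Day 7 levels of 10.83, 10.86, 10.68 and 10.50 in WT and 10.86, 11.01, 11.03 and 10.77 in KO cord did not differ from sham by the test.

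**Figure D1:**
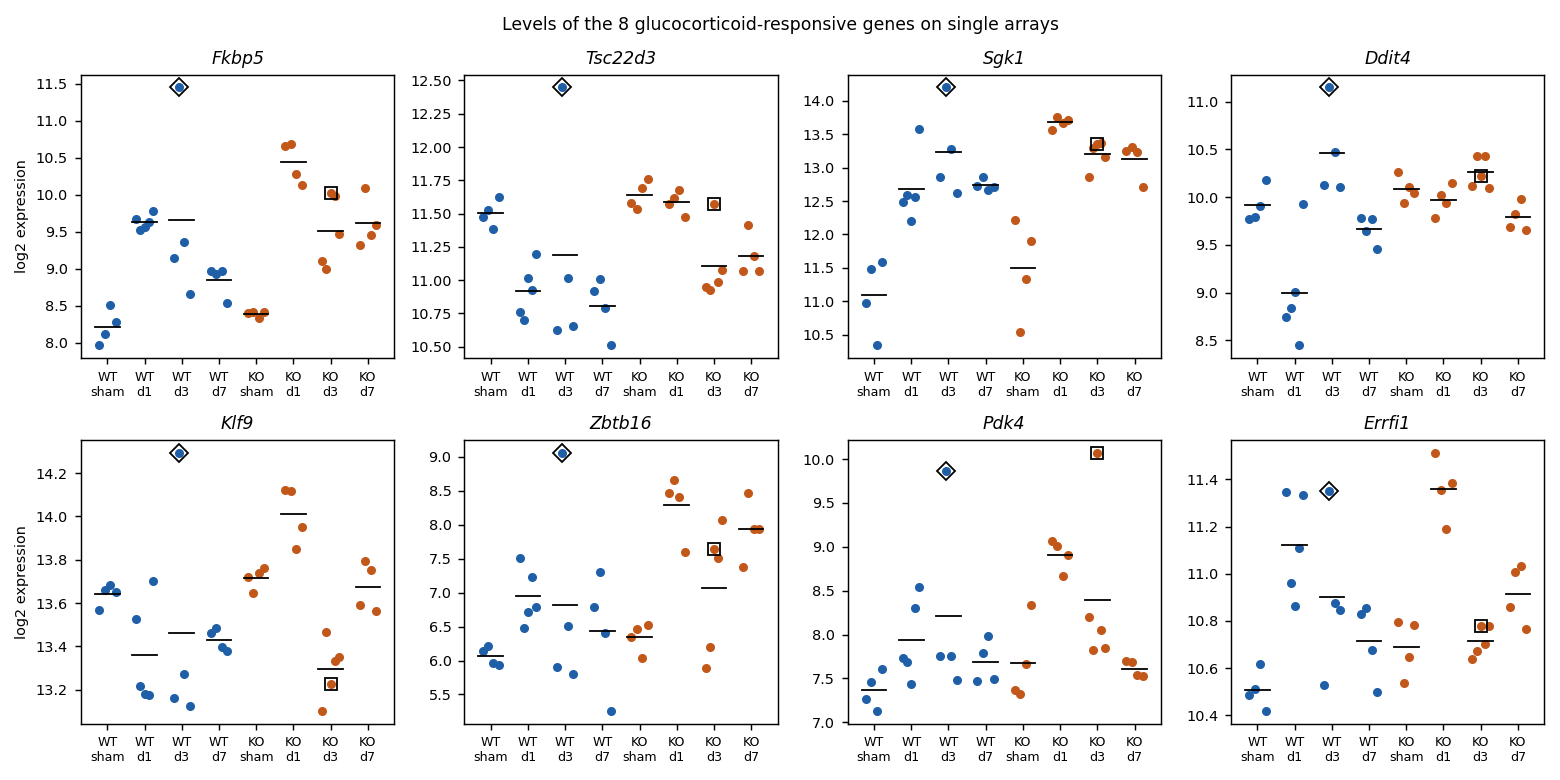
Log2 expression of the 8 genes on each of 34 arrays, by genotype (WT blue, KO orange) and time, with group means as bars; each panel has its own scale. The diamond marks WT day 3 replicate 2, the highest array of its group for all 8 genes, and the square marks KO day 3 replicate 3, which holds the highest Pdk4 value of 10.07.

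Day 3 turned on single libraries. WT day 3 replicate 2 was the highest of its 4 arrays for 8 of 8 members and the highest of all 34 arrays for 6 of them. It stood between 0.60 and 2.99 above the mean of the other WT day 3 arrays, with a median of 1.48. It read 11.45 for Fkbp5 where the others read 9.15, 9.37 and 8.66, and 12.45 for Tsc22d3 where the others read 10.62, 11.02 and 10.66. For Sgk1 it read 14.20 against 12.85, 13.27 and 12.62, and for Ddit4 11.15 against 10.12, 10.47 and 10.11. All 4 genes place this array above the other WT day 3 arrays, and for these 4 it was also the highest in the series. It read 14.29 for Klf9 against 13.16, 13.27 and 13.13, and 9.06 for Zbtb16 against 5.90, 6.51 and 5.80. For Pdk4 it read 9.87 against 7.75, 7.76 and 7.48, and for Errfi1 11.35 against 10.53, 10.88 and 10.85. Pdk4 and Errfi1 were the members for which an array elsewhere in the series was higher.

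The array also departed from its group in much else. It was the highest of its group for 33.7% of the tested genes, and 3.05% of genes lay more than 1 log2 unit above the others, the second largest share among the 34 arrays after the 3.76% of KO day 3 replicate 3. More genes departed downward, 6.68% by more than 1 log2 unit, and this share and the median absolute distance of 0.31 over all genes were the largest of the 34 arrays. Its mean over oligodendrocyte precursor markers was 6.89 where the other 3 arrays had 8.73 to 8.87, its astrocyte mean was 12.03 against 12.69 to 12.85, and its endothelial mean was 8.45 against 7.36 to 7.83. Its red blood cell mean of 5.36 lay over the 3.25 to 3.74 of the others. Their part in the members' levels was not tested.

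With all arrays, 66.9% of genes passed in WT cord at day 3, 29.5% upward and 37.4% downward, and of the members 4 rose (Fkbp5, Sgk1, Ddit4 and Errfi1) and none fell. Without WT day 3 replicate 2, an alternative planned with each array left out in turn, 2 members rose (Fkbp5 and Sgk1) and 2 fell (Tsc22d3 and Klf9). In that fit 64.7% of all genes passed, 28.9% upward. Fkbp5 went from 1.44 ± 0.34 to 0.84 and Sgk1 from 2.14 ± 0.32 to 1.82, and both still passed (adjusted p = 0.00128 and 1.35e-05 without the array, limma). Ddit4 went from 0.55 to 0.32 and Errfi1 from 0.39 to 0.24, and both calls were lost (adjusted p = 0.162 and 0.0574, limma). Ddit4 also lost its call without WT sham replicate 1 or WT sham replicate 2 (adjusted p = 0.0583 and 0.0544, limma). With all their arrays but only the groups compared, Fkbp5, Ddit4 and Errfi1 lost their calls (adjusted p = 0.0519, 0.0746 and 0.0681, limma). Without WT day 3 replicate 2, Zbtb16 moved from 0.76 to 0.01. Tsc22d3 went from -0.32 to -0.74 and Klf9 from -0.18 to -0.45, and both then passed (adjusted p = 5.17e-05 and 0.000341, limma).

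KO cord at day 3, where 69.7% of genes passed, 30.9% upward and 38.8% downward, showed that split with all arrays in the fit. Fkbp5 and Sgk1 rose, Tsc22d3 and Klf9 fell, and 4 members did not pass. Fkbp5 read 9.11, 9.0, 10.02, 9.99 and 9.47, a rise of 1.12 ± 0.32 (adjusted p = 0.00276, limma), with replicates 1 and 2 lowest. Sgk1 read 12.85, 13.29, 13.35, 13.37 and 13.16, a rise of 1.71 ± 0.30 (adjusted p = 1.24e-05, limma). Tsc22d3 read 10.95, 10.92, 11.57, 10.99 and 11.08, a fall of 0.54 on the log2 scale (SE 0.22, adjusted p = 0.03, limma), with replicate 3 among the sham values. That call was lost without any one of KO day 3 replicates 1, 2 and 4 or KO sham replicates 3 and 4 (adjusted p from 0.056 to 0.0704, limma). Klf9 read 13.10, 13.47, 13.23, 13.33 and 13.35, wholly below sham, with a fall of 0.42 on the log2 scale (SE 0.15, adjusted p = 0.0142, limma). With the mean of the caudal Hox genes as a covariate, Sgk1 alone of these 4 kept its call, and the differences of Fkbp5, Tsc22d3 and Klf9 were 0.84, -0.52 and -0.34.

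Pdk4 at day 3 in KO cord read 8.20, 7.82, 10.07, 8.05 and 7.85. Replicate 3 held the highest Pdk4 value of the series, and without it the difference from sham went from 0.73 ± 0.38 to 0.31, neither of which passed (adjusted p = 0.0936 and 0.416, limma). That array's mean over 11 skeletal muscle markers was 13.59, where the other KO day 3 arrays had 4.37 to 11.19, and its level of the fat cell hormone Adipoq was 7.74, or 5.54 above the mean of the other KO day 3 arrays. Both tissues are known to express Pdk4, and their part in the value was not tested. Zbtb16 read 5.89, 6.19, 7.64, 7.51 and 8.07, again with replicates 1 and 2 lowest. Ddit4 read 10.12, 10.43, 10.23, 10.43 and 10.10 and Errfi1 10.64, 10.67, 10.78, 10.70 and 10.78. The Errfi1 values lay among those of sham, while Ddit4 overlapped sham with replicates 2 and 4 above every sham array.

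At day 7 the calls thinned. In WT cord 59.1% of genes passed, 25.8% upward and 33.3% downward, with Sgk1 higher and Tsc22d3 lower among the members. In KO cord 54.5% passed, 23.5% upward and 31% downward, with Fkbp5, Sgk1 and Zbtb16 higher. The median of the 8 members was 0.26 in WT and 0.09 in KO cord, and that of all genes -0.06 in both. When the fit held only the groups compared, the counts at day 7 were 4 in WT and 6 in KO cord. The shares of all genes passing in those fits are not given here, so these counts cannot be set against the shares above.

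**Figure D2:**
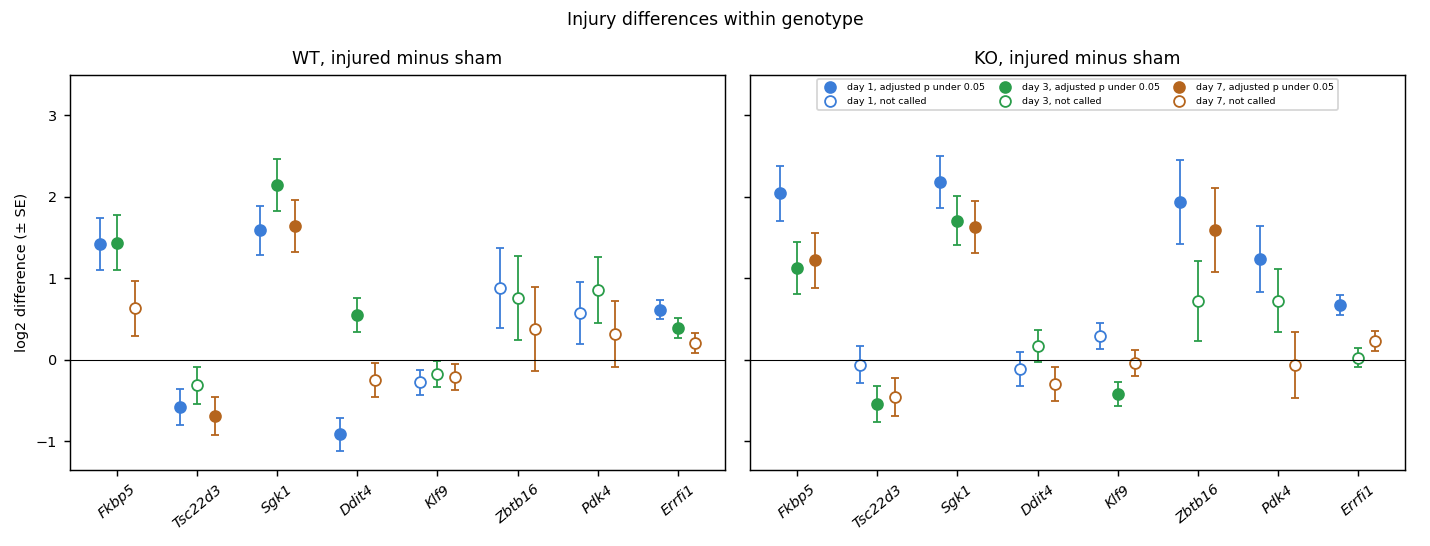
Log2 difference of each injured group from sham of the same genotype, with SE, for the 8 genes at days 1, 3 and 7; filled points have an adjusted p under 0.05 over 11993 genes. Sgk1 is filled at all times in both panels, and Fkbp5 at all times in KO and at days 1 and 3 in WT.

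Between injured groups the steps from day 1 to day 3 and from day 3 to day 7 were compared within each genotype, and the difference between genotypes in these steps was not tested. In WT cord Ddit4 rose by 1.47 ± 0.20 from its low at day 1, or 2.76-fold (adjusted p = 1.93e-06, limma). The groups did not overlap, as for 22.5% of all genes, while 32.6% of all genes passed, 15.4% upward and 17.3% downward. Ddit4 fell again from day 3 to day 7 by 0.80 on the log2 scale (SE 0.21, adjusted p = 0.00637, limma). At that step 23.1% of genes passed, 11% upward and 12% downward. This Ddit4 call was lost without WT day 3 replicate 2, at -0.57 (adjusted p = 0.0506, limma). Without that array Fkbp5 and Errfi1 also fell from day 1 to day 3 in WT cord, by 0.58 and 0.37 on the log2 scale (adjusted p = 0.0306 and 0.00746, limma). In that fit 32.9% of all genes passed, 17.1% upward.

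In KO cord 4 members fell from day 1 to day 3 and none rose, while 54.5% of all genes passed, 31% downward. Klf9 fell by 0.71 (SE 0.15, adjusted p = 0.000248, limma) and Errfi1 fell by 0.65 on the log2 scale (SE 0.12, adjusted p = 4.29e-05, limma). Both had no overlap between the groups, as 36.6% of all genes had. Fkbp5 fell by 0.92 (SE 0.32, adjusted p = 0.0166, limma) and Zbtb16 by 1.22 on the log2 scale (SE 0.49, adjusted p = 0.0361, limma). Without KO day 1 replicate 2 neither of the latter passed, and Zbtb16 also failed without KO day 1 replicate 1 or 3 or KO day 3 replicate 1 or 2. The Zbtb16 call was lost too with no filter, with only the groups compared and with the muscle or Hox covariate (adjusted p from 0.0587 to 0.0964, limma). From day 3 to day 7, when 35.9% of genes passed, 19.3% upward and 16.6% downward, Klf9 rose by 0.38 ± 0.15 in KO cord (adjusted p = 0.0485, limma), a call that was kept in 7 of the 34 fits that left out an array and was lost without the library labelled KO sham replicate 2.

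The genotypes were set against each other at each time. In sham cord no member passed (0 of 8, limma; 0 also at an unadjusted p under 0.05), where 0.0667% of all genes did, 0.0584% higher and 0.00834% lower in KO, and the members' median KO minus WT difference was 0.18. The mean was higher in KO cord for 8 of 8 members in sham cord, 8 at day 1, 2 at day 3 and 7 at day 7, where 53.131%, 55.057%, 49.42% and 51.63% of all genes had the higher KO mean. At day 1 the median difference was 0.89 where that of all genes was 0.02, and 2 members passed, where 0.859% of all genes did and 0.192% were higher and 0.667% lower in KO. Ddit4 was 0.98 ± 0.20 higher in KO, or 1.97-fold (adjusted p = 0.00949, limma), and Klf9 0.65 ± 0.15 higher, or 1.57-fold (adjusted p = 0.0274, limma). Every KO day 1 array lay above every WT day 1 array for 5 members (Fkbp5, Tsc22d3, Klf9, Zbtb16 and Pdk4), and for 2.18% of all genes. In either direction, the arrays of the 2 genotypes did not overlap for 5.01% of all genes. For Ddit4, Sgk1 and Errfi1 the arrays overlapped, and WT day 1 replicate 5, with 9.93 for Ddit4 and 13.58 for Sgk1, lay within or near the KO range.

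The day 1 calls depended on which arrays were fitted. When only the 9 day 1 arrays were fitted, Ddit4 (adjusted p = 0.17) and Klf9 (adjusted p = 0.0671) did not pass, and Fkbp5 (adjusted p = 0.0296) and Tsc22d3 (adjusted p = 0.032, limma) did. The share of all genes passing in that fit is not given here. Without WT day 3 replicate 2, which is no day 1 array but enters the shared estimate of the spread, Fkbp5, Tsc22d3, Ddit4 and Klf9 passed, where 1.73% of all genes did. Klf9 was lost without any one of WT day 1 replicates 2, 3 and 4 or KO day 1 replicates 1, 2 and 4 (adjusted p from 0.0778 to 0.0993, limma), and Ddit4 without KO day 1 replicate 4 (adjusted p = 0.0596, limma). The differences that did not pass in the fit of all arrays were 0.80 ± 0.32 for Fkbp5, 0.66 ± 0.22 for Tsc22d3, 0.99 ± 0.30 for Sgk1, 1.34 ± 0.49 for Zbtb16, 0.97 ± 0.38 for Pdk4 and 0.24 ± 0.12 for Errfi1. Of the cell type markers, the fibroblast list had the largest median difference at day 1, -1.08 in KO against WT, with 0 of 5 genes passing (limma), and its part in the members' differences was not tested. The adipocyte markers lay near the floor of the arrays in both day 1 groups, with means of 2.19 in KO and 2.18 in WT. Among 14 tested circadian clock genes, Npas2 was 0.94 ± 0.17 higher in KO at day 1 (adjusted p = 0.00243, limma). Arntl was 0.47 ± 0.11 higher (adjusted p = 0.0304, limma), and the other clock genes did not pass. The part of the clock genes in the members' differences was not tested.

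At day 3 no member passed (0.0334% of all genes did, 0.0167% in each direction; 0 of 8 at an unadjusted p under 0.05, limma), and the members' median difference was -0.11, or 0.31 without WT day 3 replicate 2. At day 7 no member passed either (0.0334% of genes did, 0.0167% in each direction), although 2 were under an unadjusted p of 0.05 (Fkbp5 and Zbtb16) and 4 members had no overlap between the genotypes, as 8.73% of all genes had. For these 4 every KO array lay above every WT array, as for 5.24% of all genes. Zbtb16 was 1.49 ± 0.52 higher in KO at day 7 with a 95% interval from 0.43 to 2.55 (adjusted p = 0.816, limma), and Fkbp5 0.76 ± 0.34 higher with an interval from 0.07 to 1.45 (adjusted p = 0.998, limma).

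Whether injury moved the members differently in the genotypes was tested as an interaction. No member passed at day 1 (0 of 8, where 0.142% of genes did), day 3 (0%) or day 7 (0.00834%), and at an unadjusted p under 0.05 there were 2, 1 and 0 members (limma). Ddit4 came to 0.80 ± 0.29 at day 1 (95% interval 0.21 to 1.39, adjusted p = 0.527, limma) and Klf9 to 0.57 ± 0.22 (0.13 to 1.02, adjusted p = 0.577, limma). So the pattern of calls, with Ddit4 and Tsc22d3 lower at day 1 in WT and not called in KO, is not shown to be a genotype difference in the response. The intervals are wide, and the one for Zbtb16 at day 1 ran from -0.40 to 2.52.

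**Figure D3:**
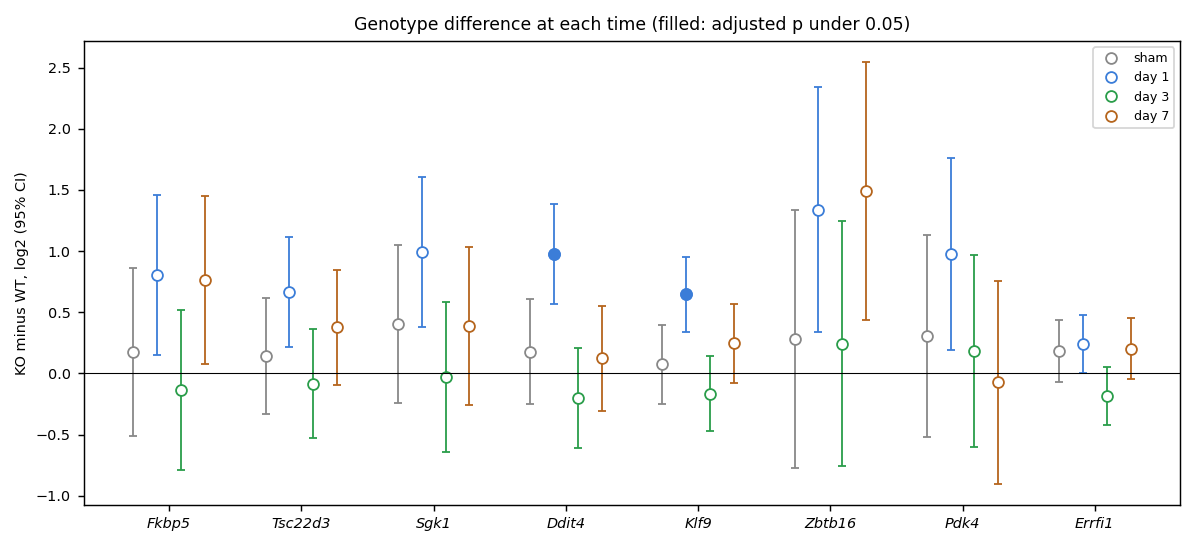
KO minus WT log2 difference of the 8 genes in sham cord and at days 1, 3 and 7, with 95% intervals; filled points have an adjusted p under 0.05. All 8 points lie above 0 in sham cord and at day 1, 2 do at day 3 and 7 at day 7. At day 1 Ddit4 at 0.98 and Klf9 at 0.65 are filled, and at the other times none is.

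Several members have more than 1 probe set above background, and these largely moved together. The 5 Klf9 probe sets gave KO minus WT differences at day 1 from 0.61 to 0.94, of which 2 passed (adjusted over 20925 probe sets, limma). The 3 Zbtb16 probe sets rose by 1.29 to 1.94 at day 1 in KO cord. Of the other Tsc22d3 probe sets in WT cord at day 1, the third by mean also fell, by 0.27 on the log2 scale, and the second gave -0.45 without passing. The second Errfi1 probe set gave 0.48 in WT and 0.55 in KO cord at day 1 and passed in both. Fkbp5 has 3 probe sets, of which 2 stayed under log2 4 on every array.

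Within groups the members rose and fell together from array to array. After the mean of its group was taken from each array, Pearson's r between members over 34 arrays ran from 0.31 to 0.87 with a median of 0.63, and was positive for 28 of 28 pairs. By permutation within groups (two-sided, 100000 resamples, adjusted over the 28 pairs), 23 pairs passed by r and 19 by Spearman's rho. The share of pairs of other genes that would pass was not computed, so these counts do not set the members apart. The list was drawn up after values of these arrays had been seen, and the p-values describe these arrays. The ties were weaker without WT day 3 replicate 2. Without it, an alternative chosen after seeing the data, r ran from -0.05 to 0.68 with a median of 0.38, 27 pairs were positive and 11 passed. Klf9 and Errfi1 were among the most closely tied, with r = 0.79 and rho = 0.75 (permutation p = 5e-05 and 3e-05, adjusted p = 0.0014 and 0.00084), 0.71 without the 2 arrays farthest from the median of Klf9 and 0.68 without WT day 3 replicate 2. Fkbp5 and Zbtb16 had r = 0.84 and rho = 0.75 (permutation p = 0.00026 and 0.00022, adjusted p = 0.0029 and 0.0031), with 0.69 and 0.68 in the same checks. Fkbp5 and Sgk1 had r = 0.47 and rho = 0.35 (permutation p = 0.031 and 0.041, adjusted p = 0.039 and 0.058), with 0.11 and 0.16 in these checks, so that the relation rests on those arrays. Ddit4 and Zbtb16 had the weakest tie, r = 0.31 and rho = 0.09 (permutation p = 0.21 and 0.66), and -0.05 without WT day 3 replicate 2. The arrays share tissue makeup and dissection as well as any hormone, and the parts of these were not tested.

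**Figure D4:**
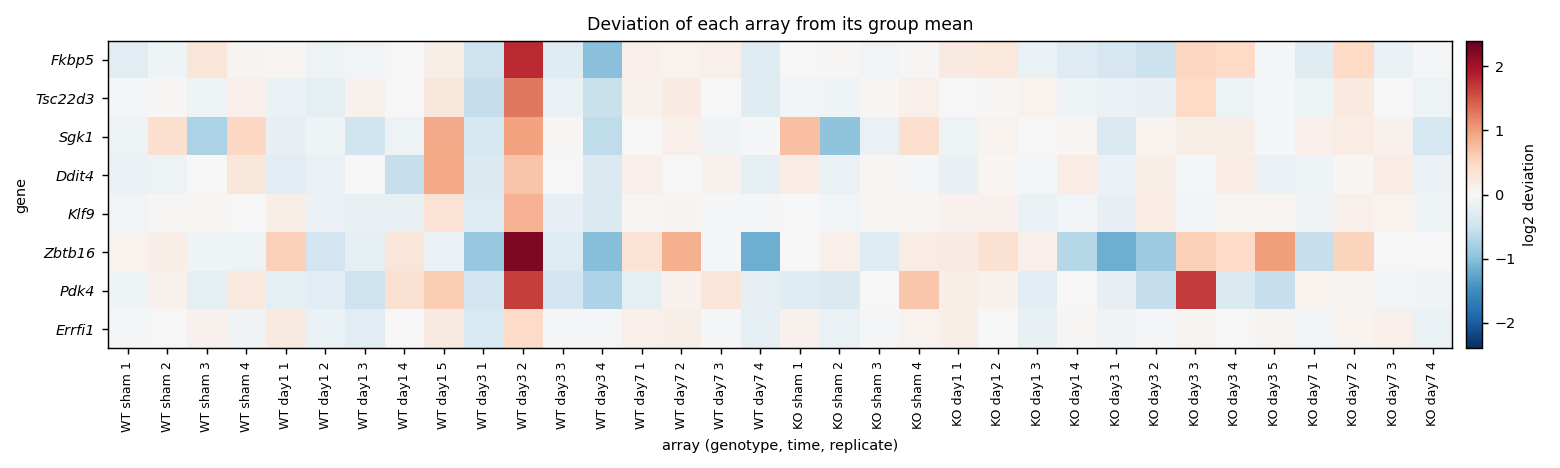
Log2 deviation of each array from its group mean for the 8 genes (rows) over 34 arrays (columns); red is above and blue below the mean. WT day 3 replicate 2 is red in every row, WT day 3 replicates 1 and 4 are below the mean in every row, and KO day 3 replicate 3 is red for Pdk4.

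**Figure D5:**
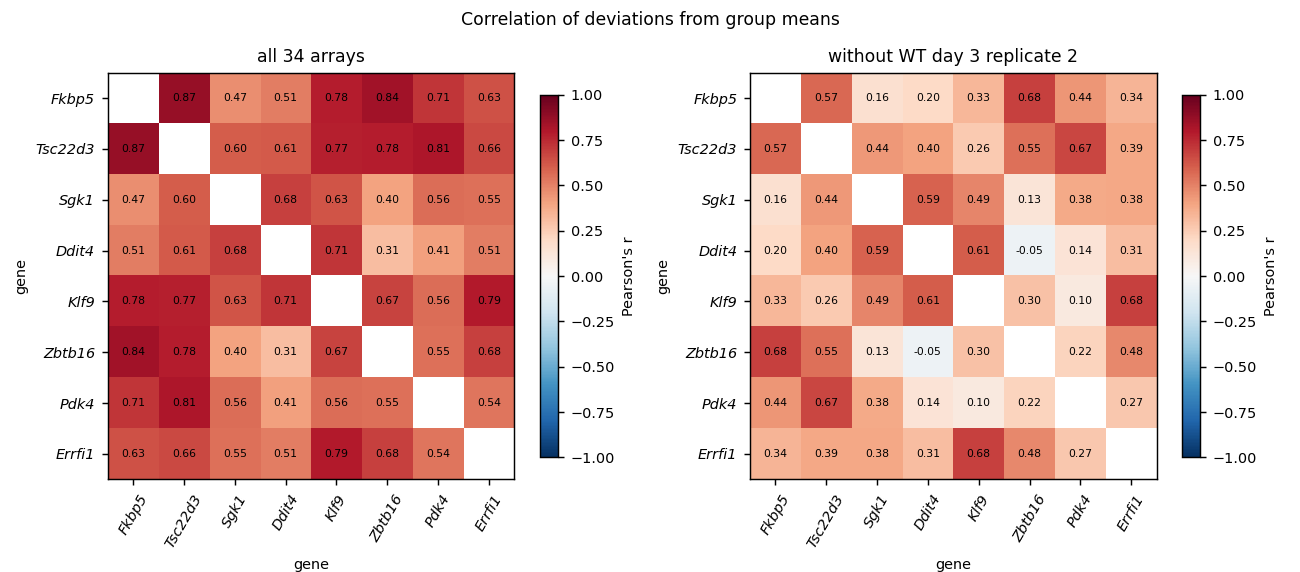
Pearson's r between the 8 genes after group means were removed, over all 34 arrays (left) and without WT day 3 replicate 2 (right). The median falls from 0.63 to 0.38, and the Klf9 and Errfi1 pair falls from 0.79 to 0.68.

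The genes most like each member were sought over the same array deviations, as a description over 34 arrays that share their tissue and scans. Sgk1 was most like Nfkbia (r = 0.79), the inhibitor of NF-kappaB, the clock gene Per1 (0.75) and the arrestin-like Arrdc2 (0.73), which are all on the list of other glucocorticoid-induced genes described next. Klf9 was most like the transcription factor Klf15 (0.92, and 0.76 without WT day 3 replicate 2), as was Errfi1 (0.87 and 0.82). Ddit4 was most like Ddc (0.82), Arrdc2 (0.82) and Mast3 (0.81). Fkbp5 was most like Zfand4 (0.90), Carhsp1 (0.90) and Polr3e (0.90), Tsc22d3 like Psma6 (0.89), Zbtb16 like Bcat1 (0.85) and Pdk4 like Ifrd1 (0.88). Without WT day 3 replicate 2 these were 0.69, 0.73 and 0.64 for Fkbp5, 0.62 for Tsc22d3, 0.73 for Zbtb16 and 0.79 for Pdk4. For Sgk1 they were 0.72, 0.74 and 0.66, and for Ddit4 0.76, 0.79 and 0.74. Over the 8 group means the closest genes were others: Adipor2 for Fkbp5 (0.97), Btbd6 for Tsc22d3 (0.96), Ogfr for Sgk1 (0.99), Wwc1 for Ddit4 (0.91), Cpm for Klf9 (0.94), Arid5b for Zbtb16 (0.96), R3hcc1l for Pdk4 (0.95) and Hs3st3b1 for Errfi1 (0.97). Each is the highest r among all other tested genes over only 8 points, so its size alone says little.

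A list of 32 other glucocorticoid-induced genes, 28 of them tested, gave a setting for the members. At day 1 in WT cord 20 rose and 3 fell, with a median of 1.21, and in KO cord 22 rose and 2 fell, with a median of 1.31. The leading genes were the transcription factor Cebpd, 5.41 ± 0.24 in WT and 5.20 ± 0.26 in KO cord, the metallothioneins Mt2 (1.34 and 1.60) and Mt1 (1.05 and 1.30), and Cebpb (2.63 and 2.64). Many of these are also driven by inflammation. In WT day 3 replicate 2, 22 of the 28 were the highest of their group and 15 lay over 1 log2 unit above the others. The list median was 1.18, while 4 of the 28 were the lowest of their group and the lowest distance was -1.68. The lipid droplet gene Plin4, the third closest to Zbtb16 over group means (r = 0.93), stood 3.58 above the other WT day 3 arrays. Arrdc2 stood 3.42, Klf15 1.96 and Per1 1.81 above them, and the value of Nfkbia is not given here. The likeness search that named these genes used this array, where the members stood high. Their height on it was thus partly built in and is no separate evidence. This list too was made with earlier results known. At day 1 between genotypes, 1 of the 28 passed, the stress-related Fam107a, 0.71 ± 0.16 higher in KO (adjusted p = 0.0201, limma), and the list's median was 0.13.

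Genes of the receptor and of hormone handling moved in both directions. The glucocorticoid receptor gene Nr3c1 fell at day 1 by 0.35 in WT (SE 0.07, adjusted p = 0.000176, limma) and by 0.68 on the log2 scale in KO cord (SE 0.08, adjusted p = 3.13e-08, limma). By day 7 it did not differ from sham by the test in either genotype, at 0.06 ± 0.08 and -0.07 ± 0.08. The mineralocorticoid receptor gene Nr3c2, which binds the same hormone, fell at day 1 by 0.70 and 0.69 on the log2 scale. Hsd11b1, whose enzyme regenerates active hormone inside cells, fell at day 1 by 0.56 in WT and 0.53 in KO cord and at day 7 by 1.71 and 1.99 on the log2 scale (adjusted p = 9.53e-08 and 6.21e-09 at day 7, limma). H6pd, which supplies that enzyme with its cofactor, rose at day 1 by 2.11 ± 0.32 in WT and 1.56 ± 0.33 in KO cord, from a sham level under log2 4. Of the 11 tested genes of this list 3 rose and 7 fell at day 1 in WT cord and 2 rose and 6 fell in KO cord, and 0 of 11 passed between genotypes at any time (limma). At an array's level, Nr3c1 in WT day 3 replicate 2 was 0.36 below the other arrays of its group while the members were above them.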

How the data were processed

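The authors' deposited table holds 1 log2 value per probe set and array. GCRMA is the tool the submitters' processing notes name, without a version. Per the labels' protocols, RNA came from a Trizol extraction and was hybridised as biotinylated cRNA. GCRMA in its usual form corrects background by probe GC content, which compresses values near the floor. The values were used as deposited. No 2 arrays held identical values. Of 45101 probe sets 34945 had 1 gene symbol, and 34741 of these symbols were matched through the Entrez ID. Each of 18193 genes was read from its probe set of highest mean. A gene was tested if 4 or more arrays exceeded log2 4, which kept 11993 genes and left out 6200.

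Groups came from the labels. A model with 1 mean per group was fitted to all 34 arrays in R 4.3.3 with limma 3.58.1 (lmFit, eBayes), with Benjamini-Hochberg adjustment over the tested genes within each of 17 comparisons. The method was tested on simulated data. The members, gene lists and motifs were chosen with earlier results of these data known. Named besides the members are Ntrk2, the passing genes of each list with the smallest p, 4 at most, lists of 12 genes or fewer, and the 3 genes most like each member over arrays and over group means; Adipoq was named after its values were seen. The files name no genome build, and coordinates are those of RefSeq's GRCm38.p6 tables. Alternatives were another filter, the mean of probe sets, quantile normalisation, a floor, fewer groups, array weights, moderation with trend, a replicate block, muscle or Hox covariates, and each array left out.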

Additional observations from a re-analysis of the deposited data

Results flagged for a closer look

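Each of the 64 combinations of a member and a group was checked for an array whose gap to its nearest neighbour is large for the range of its group (Dixon's criterion at the 95% level), which chance alone meets in about 1 of 20 groups. It was met 8 times, on 6 arrays. WT day 3 replicate 2 stood high for Klf9, at 14.29, and for Pdk4, at 9.87. KO day 3 replicate 3 stood high for Pdk4, at 10.07, and for Tsc22d3, at 11.57. WT day 1 replicate 5 stood high for Sgk1, at 13.58. WT day 7 replicate 4 stood low for Fkbp5, at 8.53, and KO day 7 replicate 4 stood low for Sgk1, at 12.71. KO sham replicate 3 stood low for Fkbp5, at 8.33, in a group whose arrays lay within 0.09 of each other.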

How the results depend on the processing

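The 32 member calls were recomputed under 11 planned settings, which gave 331 calls kept, 21 lost and 0 turned in sign of 352. With each array left out, 1035 were kept, 53 lost and 0 turned of 1088. Leaving out an array outside the groups compared cannot move a difference, only its error and adjustment. Settings that change only the filter or the error likewise leave the difference as it was. That 0 turned in sign was therefore largely fixed beforehand, and the totals kept do not measure how firm the calls are. Counts of members called moved as follows. For KO day 7 against day 3 (1 call) the count was 0 with no filter, with the muscle covariate and with the Hox covariate, 2 with only the groups compared, and 3 with array weights. With only the groups compared it was 1 for WT day 3 against sham, 4 for WT day 7, 6 for KO day 7 and 0 for WT day 7 against day 3. With array weights it was 4 for WT day 7 and 6 for KO day 7 against sham, 3 for WT day 3 against day 1, 2 for WT day 7 against day 3, and for KO against WT 7 at day 1 and 2 at day 7, with 1 for the genotype difference in the response at day 1. With the Hox covariate it was 1 for KO day 3 against sham. Without WT day 3 replicate 2 and KO sham replicate 2 together, chosen after seeing the data, it was 3 for WT day 3 against day 1, 0 for WT day 7 against day 3, 3 for KO day 7 against day 3 and 5 for KO against WT at day 1. The shares of all genes passing in that fit were 32.5%, 15.6%, 41.5% and 1.69%. Such shares are not given here for no filter, the covariates, only the groups compared and array weights. The counts under those settings therefore cannot be set against a background, and the shares of the main fit do not apply to them. The causes were not tested.

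With each array left out, counts ran from 4 to 7 for WT day 1, 3 to 5 for WT day 3, 2 to 3 for WT day 7, 5 to 6 for KO day 1, 3 to 5 for KO day 3 and 3 to 4 for KO day 7 against sham, from 1 to 3 for WT day 3 against day 1, 0 to 2 for WT day 7 against day 3, 2 to 6 for KO day 3 against day 1, 0 to 3 for KO day 7 against day 3, 0 to 4 for KO against WT at day 1 and 0 to 1 for the day 1 genotype difference in the response. The share of all genes passing moved between these fits too. For KO day 7 against day 3 it was 35.9% with all arrays. It was 42.2% without WT day 3 replicate 2 and 24.2% without KO day 3 replicate 3. Such shares are not given for most of these fits, so the ranges cannot be set against a background. Between members, 11 of 28 correlated pairs passed without WT day 3 replicate 2. With no group means removed, r of Tsc22d3 and Sgk1 turned to -0.033. That of Ddit4 and Errfi1, which had not passed, turned to -0.10. Deviations of same-numbered arrays from different groups correlated at a mean of 8e-04, with r from -0.51 to 0.56. Those of other-numbered arrays correlated at a mean of -2e-04, with r from -0.45 to 0.55. A mean over all pairs of groups cannot show whether replicate numbers pair the samples of some groups. With the replicate block the counts of members were 5, 4 and 2 in WT and 5, 4 and 3 in KO cord against sham and 2 for KO against WT at day 1, as without it, and KO against WT at day 1 went from 103 to 166 genes. Signal over background limits values near log2 4 most, and the lowest member value was 5.26, for Zbtb16.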

Other observations

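Of 11 tested paralogs of the members, 1 rose and 5 fell at day 1 in WT cord, where 59.5% of all genes passed, and 3 rose and 6 fell in KO cord, where 51.1% did. No test compared them with the members. Tsc22d4 rose by 0.66 ± 0.14 in WT and 0.99 ± 0.15 in KO cord, while Tsc22d1 fell by 0.28 on the log2 scale in both. Ddit4l, the close relative of Ddit4, fell by 1.33 in WT and 1.45 in KO cord, and Sgk2 fell by 0.92 and 0.83 on the log2 scale where Sgk1 rose. Pdk2 fell by 0.73 and 0.44 at day 1, and Pdk1 rose by 1.02 ± 0.12 at day 7 in WT cord (adjusted p = 4.66e-08, limma). Fkbp4, which acts against Fkbp5 on the receptor, fell by 0.29 on the log2 scale at day 1 in both genotypes and by 0.74 at day 7 in WT cord.

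Neighbouring pathways of single members gave mixed counts at day 1, to be read against the same shares of all genes. Of the 5 tested genes of the EGF receptor family, which Errfi1 restrains, the ligands Hbegf and Tgfa rose, Hbegf by 3.17 ± 0.13 in WT and 2.96 ± 0.14 in KO cord. Of 12 genes of the hypoxia response, which is also known to induce Ddit4, 5 rose and 4 fell in WT cord, with the glycolytic Hk2 at 2.65 ± 0.29 and Ndrg1 at -0.60 ± 0.16. Of 11 genes of fat oxidation, the pathway Pdk4 favours, 5 rose and 2 fell at day 1 in WT cord and 8 rose and 1 fell at day 7, with the carnitine transferase Cpt1a at 0.82 ± 0.12 and Ppargc1a at -0.74 ± 0.14. Of 9 genes of the integrated stress response, 4 rose and 1 fell in WT cord at day 1, with Atf3 at 4.49 ± 0.32.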
